A study of Mus musculus with 10 samples.

Results

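The genes described here belong to IL-6 family, STAT3 and C/EBP signalling in the mouse cochlea: Il6, Lif, Osmr, Il6st, Stat3, Socs3, Cebpb, Cebpd and Serpina3n. Members were all probe sets of the deposited table whose symbol in the platform annotation is 1 of these 9 genes. Of 12488 probe sets, 11 met this rule and covered 8 of the 8251 genes with a symbol of their own in the table. Il6st, Stat3 and Socs3 had 2 probe sets each, the other members 1, and no probe set carried the symbol Lif in the annotation used here. RNA was prepared from the dissected cochlea of female mice of 10 weeks, and each one-colour Affymetrix array carried the RNA of a pool of 8 mice. The study asked how gene expression after noise differs between mice of unequal susceptibility to noise damage. The noise was an octave band at 10 kHz, given at 105 dB SPL over 1 h, and tissue was taken 6 h after it. Control mice spent a sham session in the same chamber. 129X1/SvJ, an inbred strain described in the labels as highly resistant to noise, had 3 control and 3 noise arrays, and B6.CAST had 2 control and 2 noise arrays.

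Cytokines of the IL-6 family bind receptors that share the signalling chain encoded by Il6st. Janus kinases attached to that chain phosphorylate STAT3, which enters the nucleus and activates genes such as Socs3, Cebpb, Cebpd and Serpina3n, and the SOCS3 protein in turn blocks the receptor and its kinases. The C/EBP transcription factors act together with STAT3 on genes of the acute-phase response, and in the cochlea IL-6 is known as one of the cytokines made after noise exposure.

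The values are signal intensities per probe set, and a level is comparable between arrays but not between probe sets. Between the strains this assumes that the probes bind the RNA of both alike, which was not tested. Differences are on the scale of log2(intensity + 16) with their standard errors from a limma fit to all 10 arrays. A difference was called where its p-value, adjusted over all 8695 probe sets tested, was under 0.05. Of the members, 10 probe sets of 7 genes were tested, since Il6 lay below the filter on low values. The p-values reflect how much pools of mice in a group differed. Coch and Gjb2, which mark fibrocytes and supporting cells of the cochlea, had signals of at least 12604 and 9074.9 on every array, and the hair cell gene Myo7a ranged from 255.5 to 372.2. The 3′ to 5′ ratio of Gapdh, a measure of RNA integrity, was 29.2 on 129X1/SvJ control array 2, 6.94 on B6.CAST noise array 1 and between 0.790 and 1.40 on the others. The first noise array of 129X1/SvJ correlated less with the rest (mean 0.910) than any other array did (0.943 to 0.955).

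Noise was followed by higher signal of nearly all members in both strains. Every noise array was above every control array of its strain for 9 of the 10 tested probe sets in 129X1/SvJ and for 9 in B6.CAST, where 6.44% and 15.7% of all probe sets tested showed this. In both strains at once it held for 8 of 10, covering 6 of 7 genes, against 2.74% of all probe sets. The members were chosen with earlier results of these data known, which bears on each comparison with all probe sets. The median difference of the 10 probe sets was 1.12 in 129X1/SvJ and 1.01 in B6.CAST, beside medians of -0.04 and 0.01 over all probe sets tested. Averaged over both strains, 7 probe sets of Osmr, Stat3, Socs3, Cebpb and Cebpd rose, and 0.414% of all probe sets rose in that comparison. Without both arrays of high Gapdh ratio 2 of the 7 remained called, those of Cebpd and of Socs3 on 92232_at, while the calls over all 8695 probe sets, in either direction, went from 40 to 10. In the fit without a filter on low values Osmr and Cebpb lost their calls, and 38 of 12422 probe sets were called. Neither Il6st nor Serpina3n had a called rise.

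**Figure D1:**
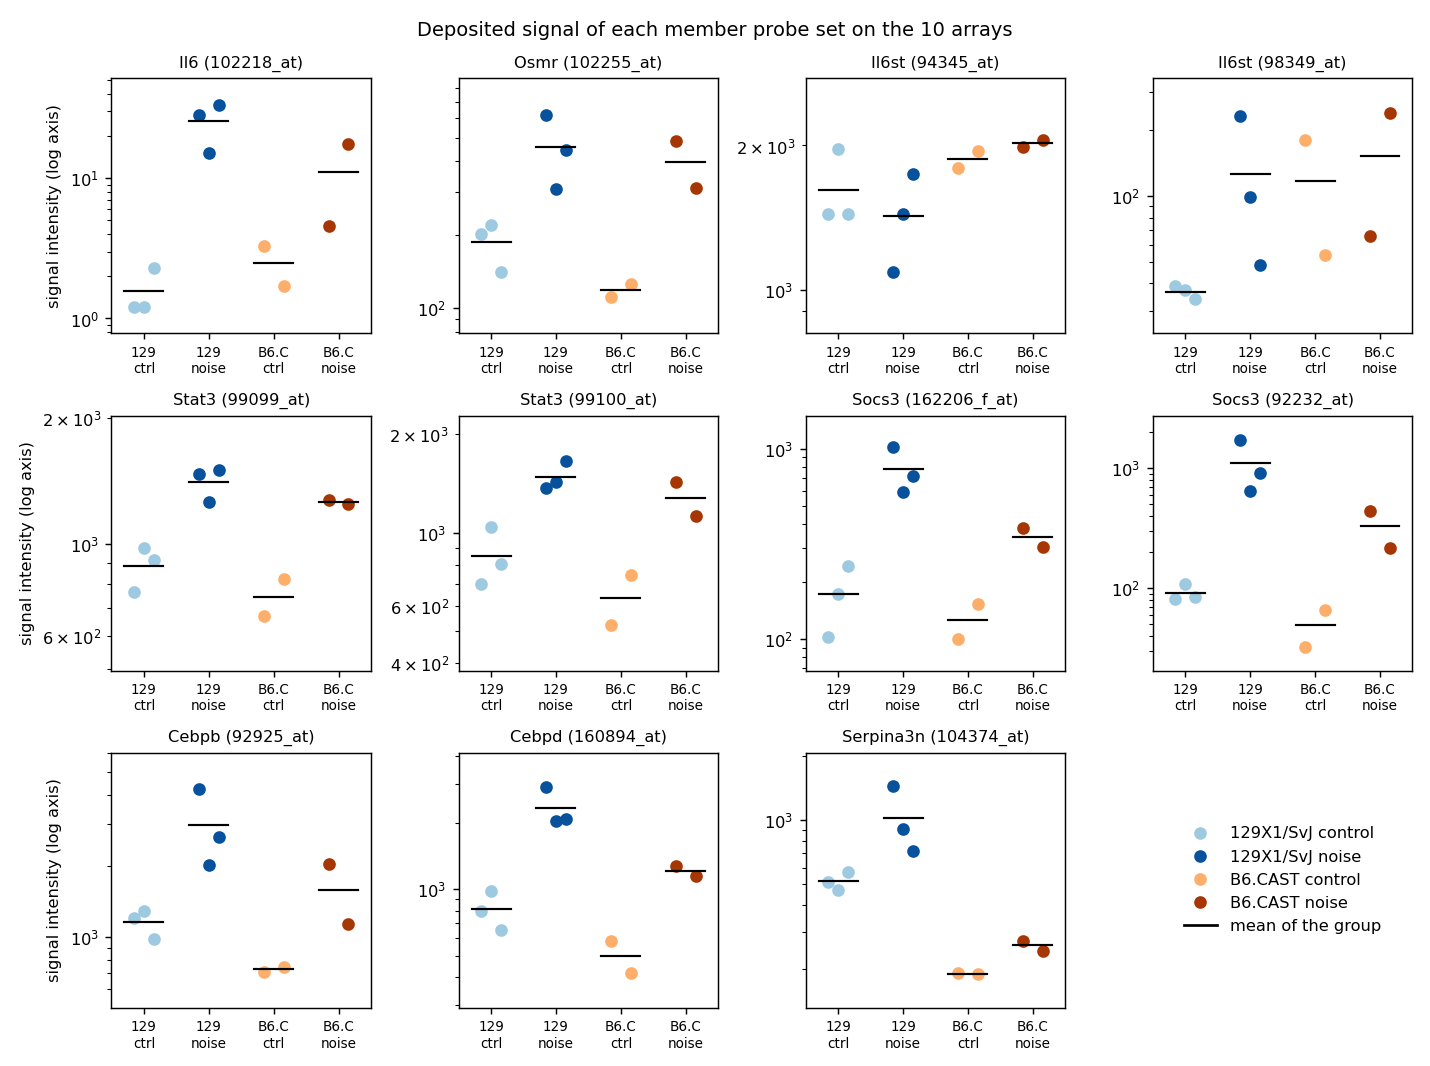
Signal of the 11 member probe sets on each of the 10 arrays, on a log axis of intensity, with 1 panel per probe set and 1 column of points per group. For Osmr, Stat3, Socs3, Cebpb, Cebpd and Serpina3n the noise points of each strain lie above its control points, as do those of the dim Il6 probe set.

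Il6 encodes the cytokine that names the family, and its probe set (102218_at) was dim. Its intensity was 1.2, 1.2 and 2.3 on the control arrays of 129X1/SvJ and 28.2, 15.2 and 33.6 on the noise arrays. In B6.CAST it was 3.3 and 1.7 in controls and 4.6 and 17.7 after noise. The noise arrays were above the control arrays in each strain, and B6.CAST noise array 1 lay close to its controls. When all 12422 probe sets other than controls of the array were fitted without a filter, the difference for Il6 was 1.09 ± 0.24 in 129X1/SvJ (limma adjusted p = 0.15) and 0.48 ± 0.29 in B6.CAST (adjusted p = 1.0). Neither passed the threshold. The offset of 16 shrinks any log2 difference of so dim a probe set. Detection flags were not used, so whether its signal stands above background was not tested.

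Osmr encodes the receptor subunit that binds oncostatin M and pairs with the shared chain. Its intensity was 201.5, 219.3 and 140.2 in control and 616.3, 307.9 and 446.0 in noise-exposed 129X1/SvJ mice. In B6.CAST the controls were at 111.7 and 125.8 and the noise arrays at 485.5 and 310.2. All 5 noise arrays were above all 5 control arrays, whatever the strain. The difference was 1.17 ± 0.30 in 129X1/SvJ (limma adjusted p = 0.18) and 1.57 ± 0.37 in B6.CAST (adjusted p = 0.68), and Osmr rose by 1.37 ± 0.24 over both strains (adjusted p = 0.028). That call was lost in 6 of the 10 fits that left out 1 array, namely 129X1/SvJ control 1, control 3 or noise 3, or B6.CAST control 1, control 2 or noise 1, with differences of 1.18 to 1.44 and adjusted p of 0.065 to 0.21.

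Il6st encodes the shared signalling chain, and its probe sets gave no called difference with noise. On 94345_at the intensity was 1434.8, 1967.4 and 1440.7 in control and 1086.3, 1439.8 and 1747.5 in noise-exposed 129X1/SvJ mice, so that the groups overlapped. B6.CAST had 1796.2 and 1943.0 in control and 1982.6 and 2057.6 after noise, which did not overlap but lay close together. Its difference was -0.15 ± 0.18 in 129X1/SvJ (limma adjusted p = 0.76) and 0.11 ± 0.22 in B6.CAST (adjusted p = 1.0). The other probe set, 98349_at, was dim in 129X1/SvJ controls at 38.8, 37.4 and 33.9, and reached 232.5, 99.0 and 48.4 after noise. In B6.CAST its values scattered within groups, at 180.4 and 54.2 in control and 65.7 and 241.1 after noise. Its differences of 1.08 ± 0.50 (adjusted p = 0.44) and 0.32 ± 0.61 (adjusted p = 1.0) did not pass, and with 1 array left out they ranged from 0.63 (without 129X1/SvJ noise 1) to 1.46 and from -0.39 to 1.03. The estimates of the Il6st probe sets thus had opposite signs in 129X1/SvJ. The 95% interval of 94345_at, -0.54 to 0.24, held both signs.

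Stat3 encodes the transcription factor of the pathway, and STAT3 is itself known to activate its own gene. On 99099_at the intensity was 763.9, 975.3 and 913.7 in control and 1466.1, 1255.3 and 1498.6 in noise-exposed 129X1/SvJ mice. B6.CAST had 670.8 and 820.5 in control and 1275.1 and 1246.6 after noise. On 99100_at, 129X1/SvJ had 700.2, 1043.6 and 803.9 in control and 1370.7, 1426.9 and 1653.4 after noise, and B6.CAST 523.2 and 744.3 against 1431.4 and 1124.0. On both probe sets every noise array was above every control array of both strains. The rise over both strains was 0.72 ± 0.12 (99099_at, limma adjusted p = 0.021) and 0.92 ± 0.15 (99100_at, adjusted p = 0.018). Within 129X1/SvJ the differences were 0.70 ± 0.15 and 0.85 ± 0.19 (adjusted p = 0.093 and 0.11), and within B6.CAST 0.74 ± 0.19 and 1.00 ± 0.23 (adjusted p = 0.94 and 0.68). Leaving out 129X1/SvJ control 3 or noise 3, or B6.CAST control 1 or noise 1, ended the call over both strains on either probe set, and leaving out 129X1/SvJ control 1 or B6.CAST noise 2 ended it on 99099_at as well. In those fits the differences were 0.65 to 0.74 with adjusted p of 0.0513 to 0.16 on 99099_at, and 0.80 to 0.92 with adjusted p of 0.0546 to 0.16 on 99100_at.

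Socs3 encodes the feedback inhibitor of the receptor and, on 92232_at, had the largest difference with noise of the tested members in both strains. On 92232_at the intensity was 80.7, 108.3 and 84.5 in control and 1741.0, 641.2 and 918.6 in noise-exposed 129X1/SvJ mice, a mean of 91.2 ± 15.0 against 1100 ± 572 (SD, n = 3). In B6.CAST it was 32.4 and 65.9 in control and 441.8 and 216.5 after noise, a mean of 49.2 ± 23.7 against 329 ± 159 (SD, n = 2). The groups of each strain were far apart, and the ratio of the means was 12.1 in 129X1/SvJ and 6.70 in B6.CAST. On 162206_f_at, 129X1/SvJ had 102.6, 172.3 and 240.7 in control and 1023.0, 593.7 and 720.3 after noise, and B6.CAST had 99.4 and 152.2 against 383.6 and 303.3. It was not tested whether 162206_f_at binds Socs3 RNA alone.

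In 129X1/SvJ, Socs3 rose by 3.23 ± 0.41 on 92232_at (limma adjusted p = 0.0033) and by 2.07 ± 0.32 on 162206_f_at (adjusted p = 0.013). The differences in B6.CAST were 2.32 ± 0.50 (adjusted p = 0.46) and 1.35 ± 0.39 (adjusted p = 1.0). Over both strains the rise was 2.77 ± 0.32 (adjusted p = 0.0021) and 1.71 ± 0.25 (adjusted p = 0.010). The call over both strains on 92232_at held in each of the 10 fits with 1 array left out. On 162206_f_at it was lost without B6.CAST control 1 or noise 1 (1.54 to 1.59, adjusted p 0.073 to 0.092), and the call within 129X1/SvJ was lost without 129X1/SvJ control 1, control 2 or noise 1 (1.77 to 2.12, adjusted p 0.055 to 0.062).

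The 250 bases before the RefSeq start of Socs3, Il6 and Stat3 (GRCm38.p6) are shown because these genes stand for the inhibitor, the ligand and the transcription factor of the pathway. The window of Socs3 is chr11:117969367-117969616 (minus strand), that of Il6 chr5:30012864-30013113 (plus strand) and that of Stat3 chr11:100939541-100939790 (minus strand). Capitals mark a match to the STAT motif TTCNNNGAA in Socs3 and to the C/EBP motif TTGCNNAA, here on the other strand as TTNNGCAA, in Il6.
Socs3: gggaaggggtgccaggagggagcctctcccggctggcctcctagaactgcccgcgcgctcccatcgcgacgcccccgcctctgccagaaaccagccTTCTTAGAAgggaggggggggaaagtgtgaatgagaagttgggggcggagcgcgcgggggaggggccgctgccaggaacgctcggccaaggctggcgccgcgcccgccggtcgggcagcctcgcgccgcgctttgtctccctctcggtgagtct
Il6: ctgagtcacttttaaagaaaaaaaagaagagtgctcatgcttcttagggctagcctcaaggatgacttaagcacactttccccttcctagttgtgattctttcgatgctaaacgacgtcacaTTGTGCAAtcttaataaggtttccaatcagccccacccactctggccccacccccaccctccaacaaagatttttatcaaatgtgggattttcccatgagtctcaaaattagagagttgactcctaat
Stat3: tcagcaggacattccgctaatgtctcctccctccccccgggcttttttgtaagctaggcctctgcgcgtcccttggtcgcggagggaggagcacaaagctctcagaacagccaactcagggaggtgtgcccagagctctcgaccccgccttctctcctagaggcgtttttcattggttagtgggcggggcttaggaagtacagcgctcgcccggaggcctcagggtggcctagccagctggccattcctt
The match in Socs3, TTCTTAGAA, begins 154 bases before the start, and that in Il6, TTGTGCAA, begins 128 bases before it. Both strands were searched, and no letters of the 2 matches overlap another match. Of the 9 members, 8 had a window, all except Cebpd, and each motif matched in 1 of them. Over all 32851 windows of this length, 7.02% held the STAT motif and 9.56% the C/EBP motif. The window of Stat3 held neither set of letters, and neither did any window not shown. With so few windows, 1 match per motif does not set the members apart from these shares.

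Cebpb and Cebpd encode C/EBP transcription factors, which are themselves early targets of cytokine signalling. Cebpb (92925_at) had an intensity of 1199.0, 1292.6 and 975.1 in control and 4249.1, 2022.6 and 2644.0 in noise-exposed 129X1/SvJ mice. B6.CAST had 711.0 and 744.7 in control and 2028.2 and 1132.9 after noise. The groups were apart within each strain, but the lower B6.CAST noise array lay within the range of the 129X1/SvJ controls. The difference was 1.33 ± 0.27 in 129X1/SvJ (limma adjusted p = 0.063) and 1.03 ± 0.32 in B6.CAST (adjusted p = 1.0), and Cebpb rose by 1.18 ± 0.21 over both strains (adjusted p = 0.033). This call was lost in 7 of 10 fits with 1 array left out, those without 129X1/SvJ control 1, 2 or 3 or noise 3, or without B6.CAST control 1, control 2 or noise 1 (0.97 to 1.22, adjusted p 0.066 to 0.21).

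Cebpd (160894_at) had an intensity of 797.6, 976.7 and 654.2 in control and 2896.4, 2027.8 and 2075.8 in noise-exposed 129X1/SvJ mice, a mean of 810 ± 162 against 2333 ± 488 (SD, n = 3). In B6.CAST it was 582.7 and 416.0 in control and 1279.0 and 1148.7 after noise, a mean of 499 ± 118 against 1214 ± 92.1 (SD, n = 2). All noise arrays were above all control arrays of both strains. Cebpd rose by 1.55 ± 0.20 in 129X1/SvJ (limma adjusted p = 0.0033) and by 1.40 ± 0.16 over both strains (adjusted p = 0.0019), and its difference in B6.CAST was 1.25 ± 0.24 (adjusted p = 0.30). With each array left out in turn, both calls held in all 10 fits. Without both arrays whose titles spell the strain 129XI/SvJ, control 3 and noise 3, no member passed within 129X1/SvJ, with an adjusted p of 0.055 for Cebpd and of 0.071 for Socs3 on 92232_at.

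Serpina3n encodes a secreted serine protease inhibitor of the acute-phase response. Its intensity (104374_at) was 512.4, 469.7 and 574.0 in control and 1440.7, 907.6 and 714.2 in noise-exposed 129X1/SvJ mice. B6.CAST had 192.0 and 190.2 in control and 273.0 and 245.1 after noise. The noise arrays were above the control arrays within each strain, and every B6.CAST array, noise or control, was below every 129X1/SvJ array. The noise difference was 0.91 ± 0.25 in 129X1/SvJ (limma adjusted p = 0.22), 0.41 ± 0.31 in B6.CAST (adjusted p = 1.0) and 0.66 ± 0.20 over both strains (adjusted p = 0.36). None of the 3 passed the threshold. Serpina3n belongs to a cluster of related genes, and whether its probe set also binds their transcripts was not tested.

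**Figure D2:**
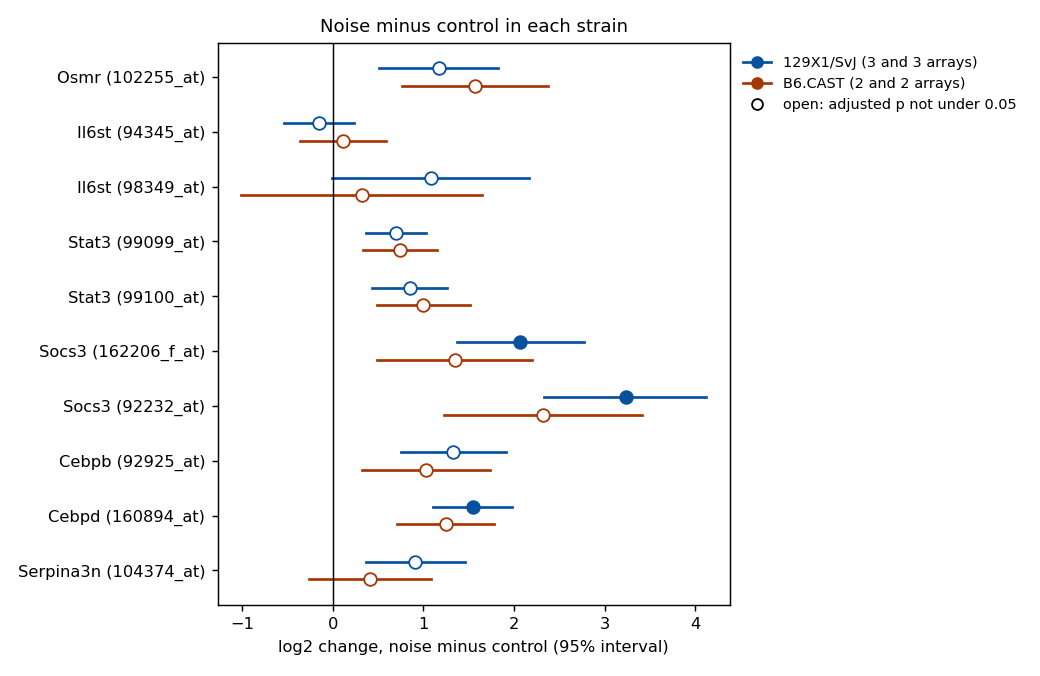
Noise minus control difference of each tested member probe set in 129X1/SvJ and in B6.CAST, in log2 units with 95% intervals from the limma fit. Points are filled where the adjusted p is under 0.05. Socs3 and Cebpd are filled in 129X1/SvJ, and no point is filled in B6.CAST.

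The number of calls differed between the strains, and so did the number of arrays. Within 129X1/SvJ, 3 of 10 member probe sets rose (both of Socs3, and Cebpd), where 0.460% of all probe sets rose. Within B6.CAST none of the 10 passed in limma, 7 of them had an unadjusted p under 0.05, and 4 probe sets of the whole array rose (0.0460%). An unadjusted p under 0.05 was found for 2.10% of all probe sets in B6.CAST. The 129X1/SvJ comparison rests on 6 arrays and the B6.CAST comparison on 4.

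The difference between the noise effects was tested itself, as the effect in B6.CAST minus that in 129X1/SvJ. No member probe set passed in limma, and 0 of all 8695 probe sets (0%) passed. None of the 10 had an unadjusted p under 0.05, which 2.98% of all probe sets had. The estimate for Socs3 was -0.90 (95% interval -2.31 to 0.51) on 92232_at and -0.72 (-1.83 to 0.38) on 162206_f_at. For Cebpd it was -0.30 (-0.99 to 0.39), for Cebpb -0.30 (-1.22 to 0.62) and for Serpina3n -0.51 (-1.37 to 0.36). Il6st had 0.26 (-0.35 to 0.87) on 94345_at and -0.76 (-2.48 to 0.96) on 98349_at. Osmr had an estimate of 0.40 (-0.64 to 1.44), and Stat3 had 0.04 (-0.49 to 0.57) and 0.15 (-0.50 to 0.81). The intervals are wide enough to hold effects of unequal size in the strains as well as equal ones. The narrowest interval was that of Stat3 on 99099_at. With 1 array left out the estimate ranged from -1.43 to -0.36 for Socs3 on 92232_at, from -1.08 to -0.36 on 162206_f_at, from -0.53 to -0.074 for Cebpd, from -0.70 to 0.11 for Cebpb and from -0.76 to -0.21 for Serpina3n. For Osmr it ranged from 0.047 to 0.76, and for Il6st from 0.089 to 0.40 on 94345_at and from -1.47 to -0.055 on 98349_at.

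Between the strains, Serpina3n was the only member with a called difference. In noise-exposed mice it was lower in B6.CAST by a log2 difference of -1.85 ± 0.28 (limma adjusted p = 0.0080), with means of 1021 ± 376 (SD, n = 3) in 129X1/SvJ and 259 ± 19.7 (SD, n = 2) in B6.CAST. No other of the 10 member probe sets passed there, and 0.575% of all probe sets were called lower in B6.CAST. In control mice the difference was -1.34 ± 0.28 (95% interval -1.95 to -0.73), with means of 519 ± 52.4 and 191 ± 1.27, and its adjusted p of 0.0505 lay just past the threshold, where 0.345% of all probe sets were called lower. The call in noise-exposed mice was lost without B6.CAST noise 1 or noise 2, which leaves that group with 1 array assumed to vary like the other groups (-1.98 to -1.71, adjusted p 0.0538 to 0.12), and also without both arrays of high Gapdh ratio (adjusted p 0.11). The comparisons share arrays with those of noise against control, so that they are not independent of them. Whether the probe set of Serpina3n binds the RNA of both strains alike was not tested.

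Several other members were lower in B6.CAST without passing the test. Every B6.CAST array was below every 129X1/SvJ array for 5 of 10 probe sets in control mice (15.8% of all probe sets) and for 6 in noise-exposed mice (12.2%). In both it held for 4 of 10, those of Cebpb, Cebpd, Serpina3n and Socs3 on 92232_at, against 3.97% of all. In noise-exposed mice the difference was -0.94 ± 0.22 for Cebpd (limma adjusted p = 0.071), -0.93 ± 0.30 for Cebpb (adjusted p = 0.23) and -1.68 ± 0.45 for Socs3 on 92232_at (adjusted p = 0.13). With 1 array left out that of Cebpb ranged from -1.32 to -0.53 and that of Cebpd from -1.03 to -0.77. In control mice the corresponding values were -0.64 ± 0.22, -0.63 ± 0.30 and -0.77 ± 0.45 (adjusted p = 0.30, 0.47 and 0.60). Osmr was at -0.57 ± 0.33 in control mice (adjusted p = 0.60) and -0.17 ± 0.33 in noise-exposed mice (adjusted p = 0.92), where the strains overlapped. Il6st was higher in B6.CAST on both probe sets, with none of the differences passing.

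**Figure D3:**
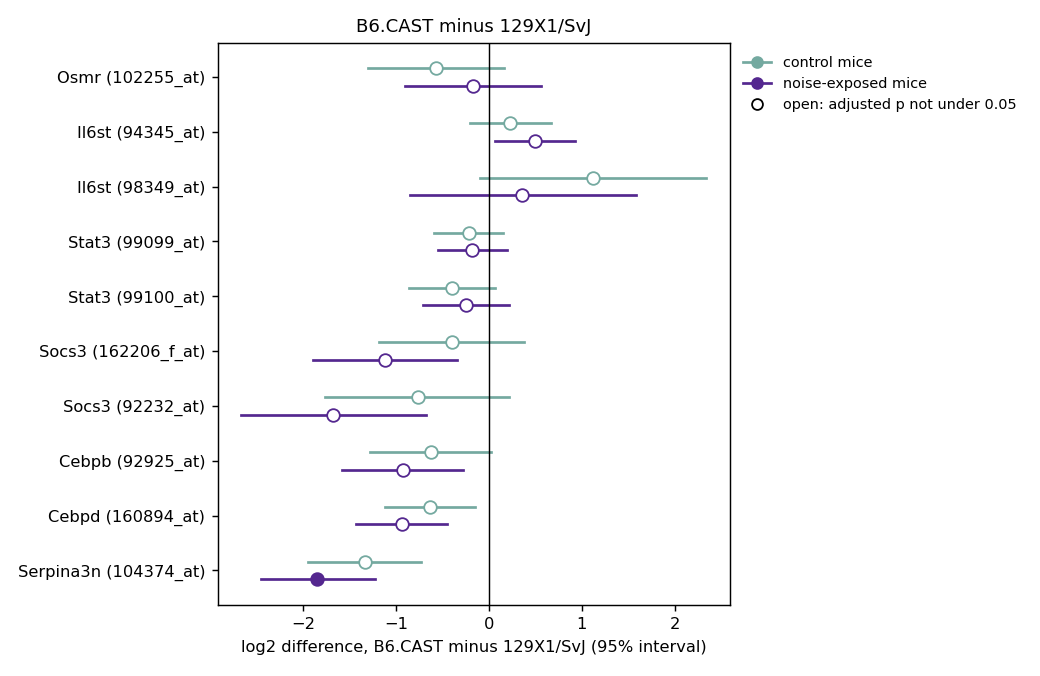
B6.CAST minus 129X1/SvJ difference of each tested member probe set in control and in noise-exposed mice, in log2 units with 95% intervals from the limma fit, filled where the adjusted p is under 0.05. Serpina3n in noise-exposed mice is the only filled point, at -1.85, and its value in control mice is -1.34.

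Within the noise groups the arrays were not equally high. The first noise array was the highest of its group for 8 of 11 member probe sets in 129X1/SvJ and for 8 of 11 in B6.CAST. How often this held over all probe sets was not counted, so it is not shown to be particular to the members. Averaged over the 10 tested probe sets, 129X1/SvJ noise array 1 lay 1.22 log2 units above the mean of all arrays and the other noise arrays of the strain 0.59 and 0.69. The B6.CAST noise arrays lay 0.32 and 0.10 above it. All 5 control arrays lay below it, by -0.87 to -0.26. Without the first noise array of either strain, an alternative chosen after seeing the data, 2 member probe sets rose over both strains, those of Cebpd and of Socs3 on 92232_at, and 18 of all 8695 probe sets were called in either direction, against 40 with all arrays. That alternative also removes an array of high Gapdh ratio, B6.CAST noise array 1 (6.94).

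**Figure D4:**
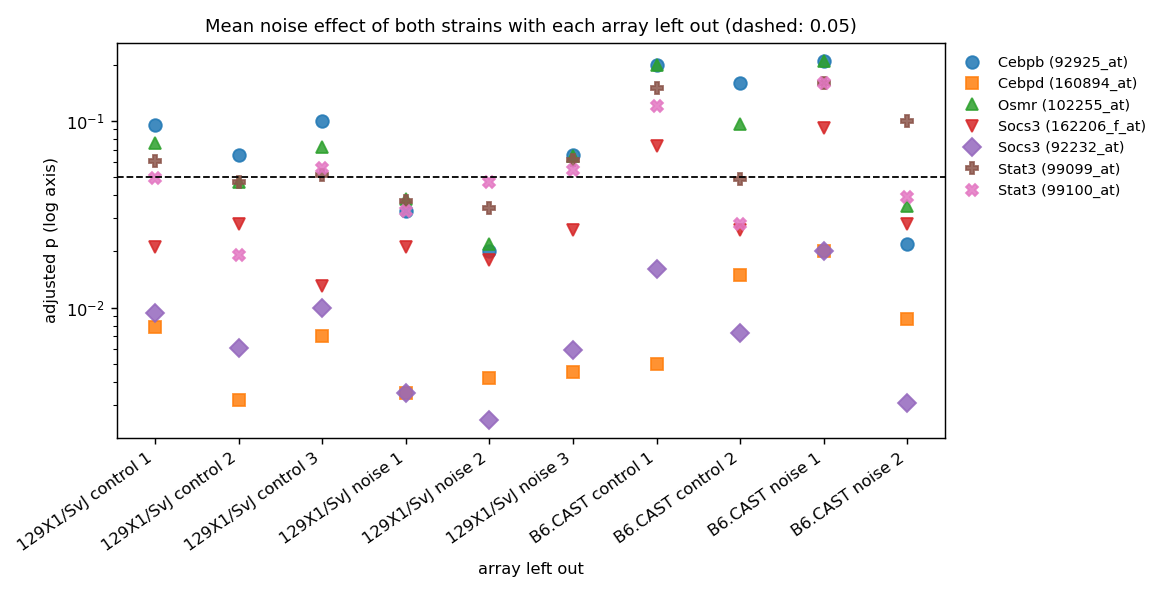
Adjusted p of the noise difference over both strains, on a log axis, in each of the 10 fits with 1 array left out. Points are the probe sets of Osmr, Stat3, Socs3, Cebpb and Cebpd, and a dashed line marks 0.05. Cebpd and Socs3 on 92232_at stay under the line in every fit, and Cebpb, Osmr and Stat3 lie above it in at least 4 of them.

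Markers of other cell types also varied between the arrays. The summed signal of the 11 neutrophil genes measured of 13 listed ranged from 3468 to 21232 in control and from 12352 to 36927 in noise-exposed 129X1/SvJ mice. In B6.CAST it ranged from 5970 to 19708 in control and from 2360 to 2652 after noise. For macrophages, with 11 of 11 genes measured, the ranges were 3115 to 4986 and 5026 to 6356 in 129X1/SvJ, and 5995 to 7383 and 5936 to 6881 in B6.CAST. No neutrophil or macrophage gene passed within a strain. Over both strains 1 of the 9 macrophage genes tested, Cd14, rose by 0.86 ± 0.16 (limma adjusted p = 0.039), where 0.461% of all genes rose. On 129X1/SvJ noise array 1 the summed signal of neutrophil, lymphocyte (1790), erythroid (47952) and bone (2371) markers was the highest of all arrays, and that of hair cell markers (2975) the lowest, with at least 4718 on every other array. Supporting cell markers summed to 33390 to 39344 in control and 29774 to 33066 in noise-exposed 129X1/SvJ mice, and to 43223 to 44512 and 38737 to 40262 in B6.CAST, without overlap in either strain. Coch and Gjb2, with medians of 15370 and 15177, weigh most in these sums. As mean log2 deviations over the same genes, the groups overlapped. They were -0.11 to 0.23 in control and -0.13 to 0.23 after noise in 129X1/SvJ. In B6.CAST they were -0.079 to -0.031 and -0.18 to 0.047. None of these markers was at 0 on any array. In whole-tissue RNA, fewer cells of a type and less RNA per cell cannot be told apart, and the part of these cells in the differences of either strain was not tested.

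Other genes of the pathway were taken from 7 lists with 83 genes, of which 62 were on the array and 45 passed the filter. The brightest probe set stood for each gene. In 129X1/SvJ, 2 of the 45 rose, Pim1 and Timp1, where 0.492% of all genes rose. In B6.CAST none passed, where 0.0461% of all genes rose, and over both strains 1 rose, Bcl3, against 0.461%. None of the 45 fell with noise. Their median difference was 0.29 in 129X1/SvJ, 0.15 in B6.CAST and 0.25 over both strains, beside -0.05, 0.01 and -0.02 over all genes tested.

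The called genes all came from the list of STAT3 targets, which was chosen with earlier results of these data known. The arrays measure RNA and not STAT3 activity, and whether STAT3 acted on these genes here was not tested. Of this list 14 were tested and 12 were higher over both strains. Their median was 0.37, beside -0.023 over all genes tested. Bcl3, a nuclear partner of NF-kappaB, had an intensity of 164.8, 36.3 and 40.7 in control and 497.6, 279.9 and 383.7 in noise-exposed 129X1/SvJ mice. B6.CAST had 40.5 and 29.7 against 255.4 and 199.7. The noise arrays were above the control arrays of both strains, with 129X1/SvJ control array 1 the highest control. Bcl3 rose by 2.22 ± 0.34 over both strains (limma adjusted p = 0.012), a call lost without B6.CAST control 1, control 2 or noise 1 (2.10 to 2.24, adjusted p 0.073 to 0.10). It was also lost without both arrays of high Gapdh ratio, without the first noise array of each strain and without both arrays spelled 129XI/SvJ. Junb, an AP-1 subunit, and Icam1, an adhesion molecule, had differences of 1.45 ± 0.39 (adjusted p = 0.24) and 1.40 ± 0.28 (adjusted p = 0.079) over both strains.

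Pim1 encodes a serine/threonine kinase that promotes survival. Its intensity was 863.4, 837.4 and 1184.9 in control and 2423.1, 1873.6 and 2009.7 in noise-exposed 129X1/SvJ mice. In B6.CAST it was 750.7 and 820.1 in control and 948.2 and 951.7 after noise, so that these noise arrays lay within the range of the 129X1/SvJ controls. Pim1 rose by 1.16 ± 0.18 in 129X1/SvJ (limma adjusted p = 0.013), and its difference in B6.CAST was 0.26 ± 0.22. The noise effects differed by -0.89 ± 0.28, with an unadjusted p of 0.0080 and an adjusted p of 1.00 in limma. In noise-exposed mice Pim1 was lower in B6.CAST by a log2 difference of -1.14 ± 0.20 (adjusted p = 0.016), where 0.630% of all genes were called lower. The rise was lost without 129X1/SvJ control 1 or control 2 (1.06 to 1.08, adjusted p 0.069 to 0.079), and the strain difference without B6.CAST noise 1 or noise 2 (-1.15 to -1.13, adjusted p 0.16). Both calls were also lost without the arrays of high Gapdh ratio and without the first noise array of each strain, the rise also with the arrays of that comparison only, and the strain difference also with either replicate block.

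Timp1, which encodes an inhibitor of matrix metalloproteinases, had an intensity of 296.6, 251.4 and 392.3 in control and 1100.9, 875.3 and 647.2 in noise-exposed 129X1/SvJ mice. B6.CAST had 244.1 and 390.9 against 427.3 and 440.5. The groups were apart in both strains, those of B6.CAST narrowly. Timp1 rose by 1.41 ± 0.26 in 129X1/SvJ (limma adjusted p = 0.045), and the difference in B6.CAST was 0.48 ± 0.32. The noise effects differed by -0.93 ± 0.41, with an unadjusted p of 0.046 and an adjusted p of 1.00 in limma. The rise was lost in 15 of 24 alternatives, among them the fits without a filter, without a variance trend, with the arrays of that comparison only, with either replicate block and without the arrays of high Gapdh ratio. They include 7 of 10 fits with 1 array left out, those without 129X1/SvJ control 1, 2 or 3, noise 1 or noise 2, or without B6.CAST noise 1 or noise 2 (1.22 to 1.57, adjusted p 0.071 to 0.19).

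In the other 6 lists no gene passed over both strains. Of the cytokines, 2 were tested and 1 was higher, with Ebi3 at -0.70 ± 0.28 (limma adjusted p = 0.58) and Ctf1 at 0.15 ± 0.17. Among 5 receptors 4 were higher, and Il6ra, the receptor of IL-6, had 0.55 ± 0.19 (adjusted p = 0.50) and Cntfr 0.34 ± 0.35. Of the 6 Janus kinases and other STATs, 3 were higher and 3 lower (median 0.079), and the smallest p-values were those of Jak3 at 0.45 ± 0.17 and Stat5a at 0.30 ± 0.15. Jak1, Jak2 and Stat6 were at -0.12, -0.19 and -0.12. Of the 10 inhibitors tested besides Socs3, 7 were higher, with Ptpn1 at 0.68 ± 0.24 (adjusted p = 0.51) and Socs1 at 0.59 ± 0.25 (adjusted p = 0.61). The other C/EBP family factors, Ddit3 at 0.52 ± 0.12 (adjusted p = 0.17) and Cebpg at 0.35 ± 0.30 among them, were all 3 higher without passing. Of 16 acute-phase genes on the array 5 passed the filter, and 2 of these were higher (median -0.022). Cp, which encodes ceruloplasmin, had 0.30 ± 0.10 (adjusted p = 0.48) and Saa2 0.51 ± 0.24 (adjusted p = 0.68). Lcn2, which encodes lipocalin and is abundant in neutrophils, was at -0.12 over both strains, with 1.53 in 129X1/SvJ and -1.77 in B6.CAST. Hp, which encodes haptoglobin, was at -0.022, with 0.59 and -0.63, and Lbp at -0.041. Lcn2, Hp, Lbp, Jak1, Jak2 and Stat6 were named after their values were seen, and none passed.

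**Figure D5:**
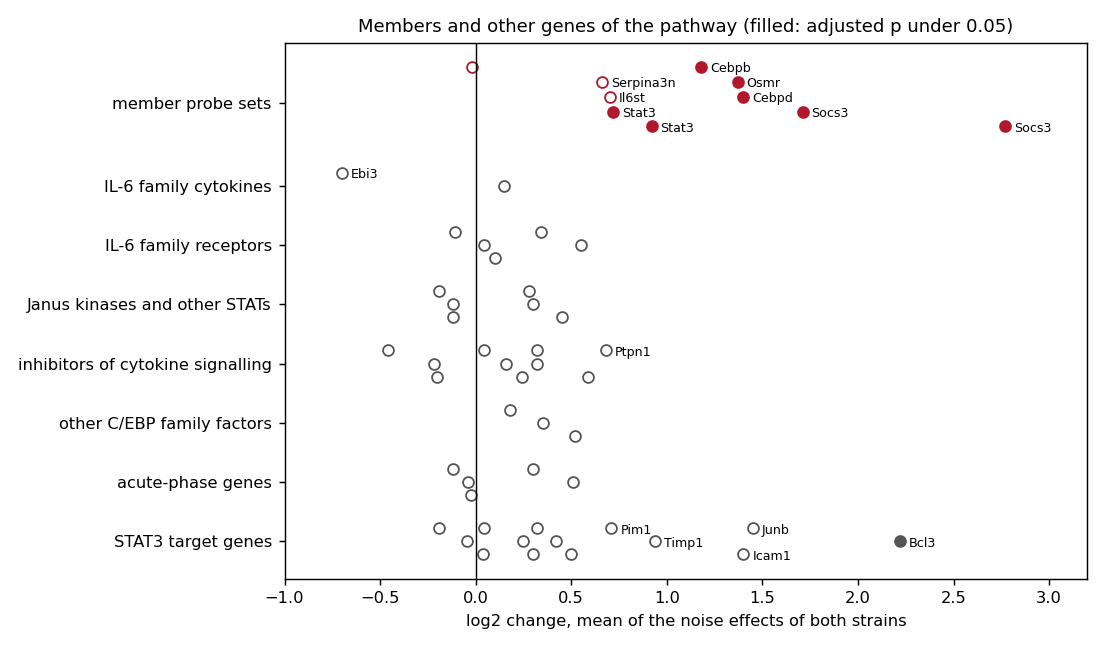
Noise difference over both strains, in log2 units, of the tested member probe sets and of the other tested genes of 7 pathway lists, 1 point each, filled where the adjusted p is under 0.05. Bcl3 at 2.22 is the only filled gene outside the members, and Socs3 at 2.77 is the highest point.

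The genes most like each called member in their pattern were found by the root mean square difference, over the 10 arrays, of log2 values centred on their own mean, among 6505 other genes. For Osmr they were Cebpb (0.29), Icam1 (0.30) and Bhlhe40 (0.31), beside a median of 0.827 over all genes. For Cebpb they were Rasd1 (0.20), Cebpd (0.25) and Ppp1r15a (0.28), and for Cebpd they were Phlda1 (0.24), Cebpb (0.25) and Rasd1 (0.30), with medians of 0.843 and 0.900. Cebpb and Cebpd were thus each among the 3 genes most like the other. For Socs3 on 162206_f_at they were Atf3 (0.32), Cldn4 (0.38) and Egr1 (0.40), with a median of 1.10. For Stat3 on 99099_at they were Plat (0.15), Fgfr1 (0.15) and Cmip (0.16), with a median of 0.488. All values of a pair come from the same arrays, so that a difference between arrays enters both genes.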

How the data were processed

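RNA of 10 cochlear pools was measured on one-colour Affymetrix arrays, and groups follow the sample titles. The authors deposited linear signal intensities per probe set, and the values show that they had been scaled array by array (mean without the lowest and highest 2% of probe sets 500.268 to 500.304). The software that made them is not given in the sources used here. Of 12488 probe sets, 66 are control probe sets and 10855 have 1 gene in the platform annotation. Symbols were updated by gene identifier through RefSeq (GRCm38.p6), which matched 10839.

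The intensities were moved to log2(intensity + 16) and quantile normalized. A filter removed controls and the 30% of probe sets with the lowest mean, and 8695 with a mean signal over 42.89 remained. A model with 1 mean per group was fitted to all 10 arrays in limma 3.58.1 under R 4.3.3, with a variance trend. Its 6 contrasts were tested with Benjamini-Hochberg adjustment at 0.05. The scripts were tested on simulated data. The number of arrays limits the precision.

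The spelling 129XI/SvJ in the titles of 2 arrays was read as 129X1/SvJ. Promoter windows come from RefSeq. The rule for names took all members, pathway genes that passed in any contrast, 2 more per list by p over both strains, and the 3 genes most like each member called with noise. Members and lists were chosen with earlier results of these data known. Alternatives covered scaling, offset, filter, variance trend, array weights, arrays in the fit, left-out arrays, a replicate block and the threshold.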

Additional observations from a re-analysis of the deposited data

How the results depend on the processing

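Of 24 alternatives, 22 were planned and 2 were added after seeing the data. In each of those run for it, the noise calls within B6.CAST and for the difference between the noise effects remained at 0 of the members. In 129X1/SvJ, 3 member probe sets were called, 5 at a threshold of 0.1, 0 without both arrays spelled 129XI/SvJ, and 2 to 4 with 1 array left out. Over both strains 7 were called, 3 without a variance trend, 3 without both arrays spelled 129XI/SvJ, 2 without both arrays of high Gapdh ratio, 2 without the first noise array of each strain, and 2 to 7 with 1 array left out. The calls over all probe sets tested ranged over the alternatives from 17 to 71 in 129X1/SvJ (44 in the reported fit) and from 10 to 54 over both strains (40 in the reported fit). Between the strains they ranged from 23 to 153 in control mice (80 in the reported fit) and from 26 to 204 in noise-exposed mice (126). Without a filter 5 of 11 members were called over both strains. For the strains in control mice 0 were called, and 1, Serpina3n, without quantile normalization, with the lowest 50% left out, with array weights, with the arrays of that comparison only, without the first noise array of each strain, and at a threshold of 0.1. With 1 array left out it was 0 to 1. In noise-exposed mice 1 was called, 0 with the arrays of that comparison only, 0 without both arrays of high Gapdh ratio, 2 at a threshold of 0.1, and 0 to 1 with 1 array left out. The cause of these changes was not tested, apart from the fewer arrays or the other threshold themselves. With 2 or 3 arrays a group, the number of arrays limits what could be called.

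Within a strain, arrays with the same replicate number did not deviate together (correlations -0.389 to -0.15), and no array correlated best with its own number. The numbers were not used as a pairing in the reported fit. With 2 arrays a group, the B6.CAST correlations are 1 value with either sign (-0.169 and 0.169). Whether arrays of the same number share a batch across the strains was not tested. With the replicate block 2 member probe sets were called in 129X1/SvJ and 4 over both strains. The crossed replicate block of B6.CAST, added after seeing the data, gave 3 and 4.

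The sign turned in 28 cases over 10 differences, none called in either fit. For Il6st on 94345_at the noise difference ranged over left-out arrays from -0.29 to 0.022 in 129X1/SvJ and from -0.089 to 0.066 over both strains, and it was 0.021 and 0.090 without the first noise array of each strain and 0.078 over both strains without the arrays of high Gapdh ratio. For Il6st on 98349_at it ranged from -0.39 to 1.03 in B6.CAST, and the strain difference in noise-exposed mice ranged from -0.35 to 1.07 and was -0.033 without the arrays spelled 129XI/SvJ. The difference of its noise effects was 0.41 without the first noise arrays. For the difference of the noise effects, Stat3 ranged from -0.1 to 0.18 on 99099_at and from -0.097 to 0.4 on 99100_at and Cebpb from -0.7 to 0.11. Without the arrays of high Gapdh ratio that difference was -0.037 and -0.15 for Stat3 and -0.092 for Osmr, without the first noise arrays it was -0.052 for Stat3 on 99100_at, and with array weights it was 0.0050 for Cebpb. The strain difference of Osmr in noise-exposed mice ranged from -0.52 to 0.19 and was 0.077 with array weights.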
